A study of Mus musculus with 8 samples.

Results

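The Ifi200 genes named here are 8 members of a mouse family of interferon-inducible DNA-binding proteins: Ifi203, Ifi204, Ifi205, Ifi206, Ifi207, Ifi208, Ifi209 and Mndal. They are the rows of the expression table that carry those symbols, 8 of 27249 genes, and were selected on their measured response to osteogenic medium in these same libraries. RNA was sequenced from primary mouse vascular smooth muscle cells, which form the contractile layer of arteries, in 8 libraries that form 4 groups of 2. GFP control cells, whose genotype is given as WT, overexpressed green fluorescent protein, while the other cells carried extra THOC5, which belongs to the THO complex that links transcription to mRNA export and gives them the name THOC5 cells here. Both kinds of cell either stayed in growth medium or were given osteogenic medium with inorganic phosphate (Pi) for 6 days, a treatment used as a model of arterial calcification. All 4 groups therefore carried an overexpression construct, and no group of unmodified cells was analysed here. The labels give no mouse strain, age, vector or promoter, nor whether each replicate had its own culture, so p-values measure only the spread between these libraries, which may be technical.

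Ifi200 proteins, also called PYHIN proteins, pair a HIN domain, which binds double-stranded DNA, with a pyrin domain, through which proteins with the same domain associate, though some members lack one of them. Aim2, their best known relative, assembles an inflammasome on cytosolic DNA, and the product of Ifi204 (p204) is a DNA sensor that signals through STING toward interferon beta. The genes are themselves induced by interferons, and promoters of such genes often carry the interferon-stimulated response element (ISRE). In the mouse they sit side by side in 1 cluster whose gene content differs between strains, and the copies are alike enough that reads can be assigned to the wrong one.

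The promoter sequences are shown first because most members share a motif of interferon-induced genes close to their start, and because Ifi206 and Ifi208 have nearly the same promoter. RefSeq promoter windows (GRCm38.p6) were found for 7 members, all but Ifi204, and 5 other family genes. The 250 bases before each annotated start were searched on both strands for an ISRE core, GAAANNGAAA, which 6 of the 7 members held. The same letters occurred in 2.98% of 32851 mouse promoters of that length. That share is per window, whereas a member was counted if any of its windows held a match. Several of the members' promoters are near copies of each other, so their matches are not separate observations. Below, 30 bases around the match are printed 5′ to 3′ on the gene's strand, with the match in capitals. For Ifi209, which held none, the capitals mark the bases that align with the match in its neighbour Ifi214.
Ifi206 (chr1:173491339-173491368, minus strand): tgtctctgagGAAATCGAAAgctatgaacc
Ifi208 (chr1:173673597-173673626, plus strand): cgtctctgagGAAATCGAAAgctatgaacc
Ifi207 (chr1:173741831-173741860, minus strand): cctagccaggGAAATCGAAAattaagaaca
Mndal (chr1:173880204-173880233, minus strand): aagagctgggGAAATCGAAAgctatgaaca
Ifi203 (chr1:173942508-173942537, minus strand): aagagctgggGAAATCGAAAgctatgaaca
Ifi205 (chr1:174031870-174031899, minus strand): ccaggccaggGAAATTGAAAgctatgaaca
Ifi209 (chr1:173630770-173630799, plus strand): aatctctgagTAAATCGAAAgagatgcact
Ifi213, other family gene (chr1:173599326-173599355, minus strand): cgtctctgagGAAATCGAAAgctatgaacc
Ifi214, other family gene (chr1:173536017-173536046, minus strand): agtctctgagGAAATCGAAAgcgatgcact
Ifi211, other family gene (chr1:173913064-173913093, minus strand): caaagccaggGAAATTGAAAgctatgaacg

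In 5 of the 6 members with a match it began between 58 and 35 bases before that start, and in Ifi205 it began 134 bases before it. In the printed windows Ifi203, Mndal, Ifi206, Ifi207 and Ifi208 shared 1 spelling of the match, and Ifi205 had the spelling of Ifi211. Mndal and Ifi203 have 2 annotated starts each, and the window with that spelling is shown. The other Mndal window held a match with another spelling on the opposite strand, 54 bases before its start, and the other Ifi203 window held none. Within the 10 bases in capitals, Ifi209 differed from Ifi214 by G1T, counted from the first of those bases with the Ifi214 base given first. Another interferon motif, the gamma-activated site TTCNNNGAA, was in 0 of the 7 members and in 7.02% of all promoters. The letters TGANTCA, searched as a loose form of the AP-1 motif, were in 3 of the 7, Ifi203, Ifi209 and Mndal, and in 6.75% of all promoters. The match read TGACTCA in Ifi209 and TGATTCA in both Ifi203 windows and the printed Mndal window. In the other Mndal window it read TGAGTCA. In no window did these matches overlap the ISRE core. A match describes letters in a window, and no binding was measured.

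**Figure D1:**
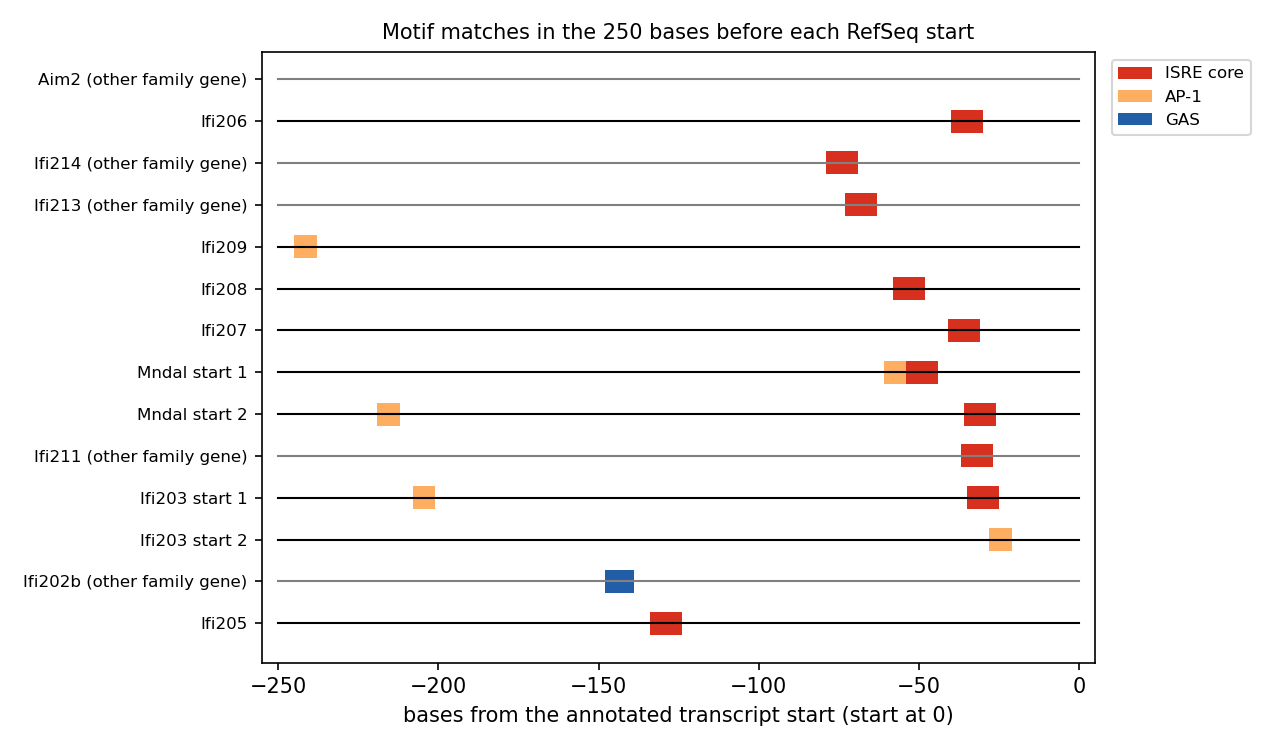
Motif matches in the 250 bases before each RefSeq start, with distance from the start in bases on the x axis and 1 line per promoter (black for members, grey for other family genes). ISRE core matches (red) lie within 58 bases of the start in Ifi206, Ifi207, Ifi208, Mndal and Ifi203, and 134 bases before it in Ifi205. Mndal and Ifi203 have 2 annotated starts each.

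Ifi206 and Ifi208, which had the largest log2 changes between media among the members, shared 231 of 232 aligned promoter bases (99.6%). A 130-base stretch of each is shown for that reason, with the ISRE core in capitals. The 2 stretches differ by T101C, counted from the first printed base with the Ifi206 base first.
Ifi206 (chr1:173491339-173491468, minus strand): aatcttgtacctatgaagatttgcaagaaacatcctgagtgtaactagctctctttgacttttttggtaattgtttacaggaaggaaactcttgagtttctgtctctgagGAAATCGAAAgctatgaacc
Ifi208 (chr1:173673497-173673626, plus strand): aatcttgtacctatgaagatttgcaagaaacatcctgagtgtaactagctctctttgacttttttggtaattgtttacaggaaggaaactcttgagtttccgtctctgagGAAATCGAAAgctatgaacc
Ifi213 shared 233 of 235 aligned bases (99.1%) with Ifi208, and its log2 changes were in the same range. Ifi207 was less alike, with 57.7% of aligned bases shared with Ifi206 and 58.1% with Ifi208. High identity was also seen between promoters of members with smaller changes: Mndal and Ifi203 shared 233 of 249 (93.6%). Ifi207 and Ifi211 shared 216 of 247 (87.4%). In GFP cells Ifi207 changed by a log2 of 2.00 ± 0.20 and Ifi211 by 0.44 ± 0.11 (SE, 2 libraries against 2). The Ifi211 value is uncertain, as 72.8% of the 50-base stretches of its transcript also occur in other family genes. Whether promoter sequence bears on the size of a change was not tested.

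Libraries held 7058681 to 10581042 reads. Thoc5 was read first as a check of the labels, and stood at 458 and 471 normalized counts in the GFP growth libraries, 650 and 615 in the GFP osteogenic libraries, 2155 and 1406 in the THOC5 growth libraries, and 1780.2 and 1937 in the THOC5 osteogenic libraries. It was higher in THOC5 than in GFP cells in either medium (adjusted p 0.00187 in growth and 5.24e-05 in osteogenic medium, limma with Benjamini-Hochberg adjustment). Summed over 8 smooth muscle markers, counts ran from 25072 to 32192 in the growth groups and from 25662 to 27650 in the THOC5 osteogenic libraries, but were 12005 and 13905 in the GFP osteogenic libraries. There 7 of the 8 fell, such as Acta2 (log2 change -1.05 ± 0.12), whereas 0 of 8 passed in the THOC5 response. Of the 11 macrophage markers 9 were in the table, and their sum was 952 to 1232 in the growth groups, 683 and 701 in the GFP osteogenic libraries, and 964 and 1140 in the THOC5 osteogenic libraries. Single macrophage genes differed from that sum: Cd14 fell in GFP cells (log2 change -1.33 ± 0.18), whereas Cd68 rose there (0.56 ± 0.12, adjusted p 0.00729, limma) and was lower in THOC5 than in GFP cells in osteogenic medium (-1.09 ± 0.12). The macrophage genes Adgre1 and Itgam were at 0 in all growth libraries, and Ptprc was at 0 in the GFP osteogenic libraries. The 3 lymphocyte markers in the table summed to between 0.965 and 6.36. The 6 adventitial fibroblast markers summed to 16667 to 21169 in the growth groups, 6637 and 9182 in the GFP osteogenic libraries, and 18705 and 19764 in the THOC5 osteogenic libraries. Of these 6, 3 fell in GFP cells, such as Dcn (-1.54 ± 0.15), the most abundant of them. Ly6a was at 0.16 ± 0.12 there and did not pass. In THOC5 cells Ly6a rose (0.92 ± 0.12) and 0 of the 6 fell. The 4 endothelial markers in the table summed to 75.8 to 120.7 in the growth groups, 55.4 and 36.7 in the GFP osteogenic libraries, and 87.2 and 83.5 in the THOC5 osteogenic libraries. Among them Vwf fell in GFP cells (-2.69 ± 0.27), and Kdr was at 1.20 ± 0.41 and did not pass. What these shifts contribute to the changes below was not tested.

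Levels differed widely among the members even per length of exon. In GFP cells in growth medium, Ifi204 stood highest at 544.7 ± 40.0 normalized counts per kb of exon (SD, n = 2), followed by Mndal at 294.7 ± 10.7, Ifi203 at 209.3 ± 30.1 and Ifi207 at 84.5 ± 21.7. Ifi205 stood at 28.6 ± 4.1 per kb, Ifi206 at 19.3 ± 0.2, Ifi208 at 3.08 ± 0.29 and Ifi209 at 0.329 ± 0.465. Each neighbouring pair in this order was separated in both libraries, as no library of the lower gene reached the lowest library of the higher one. In the GFP osteogenic libraries 2 neighbouring pairs overlapped: Mndal and Ifi203, at 391 and 541 against 279 and 413 per kb, and Ifi203 and Ifi207, the latter at 310.1 and 359.7. Ifi206 moved above Ifi205 there, at 102 and 142 against 61.7 and 86.3. Ifi206 also passed Ifi205 in the THOC5 osteogenic libraries, at 109 and 108 against 67.2 and 67.0.

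The 3 most abundant members were Ifi204, Ifi203 and Mndal. Ifi204, the gene for the DNA sensor p204, stood at 1839 and 2040.5 normalized counts in the GFP growth libraries and 2428 and 2944 in the GFP osteogenic ones. THOC5 cells had 1835 and 1725 of them in growth and 3147 and 2852 in osteogenic medium. No osteogenic library overlapped a growth library of the same cells, and the log2 change was 0.46 ± 0.10 in GFP cells and 0.75 ± 0.10 in THOC5 cells, the smallest of any member in GFP cells. Ifi203 stood at 1261 and 1546 in the GFP growth libraries and 1872 and 2768 in the osteogenic ones, against 1223 and 1008.5, then 2589 and 2085, for THOC5 cells. Its osteogenic libraries were the higher ones in both kinds of cell, by 1.65-fold and 2.09-fold in the means. Mndal, which encodes a protein like the myeloid nuclear differentiation antigen, stood at 1042 and 1097 in the GFP growth libraries and 1418 and 1963 in the osteogenic ones. The THOC5 values of Mndal were 1034 and 799, then 1833 and 1683. Its groups did not overlap either, at 1.58-fold and 1.92-fold.

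Apart from Ifi209, which rested on few reads, the steepest changes were in Ifi206, Ifi207 and Ifi208. Ifi206 stood at 59.4 and 58.5 normalized counts in the GFP growth libraries, against 310.5 and 434 in the osteogenic ones. Its THOC5 values were 43.4 and 23.9, then 334 and 329. All 4 of its osteogenic libraries lay far above all 4 growth libraries, with a log2 change of 2.62 ± 0.24 in GFP cells (6.31-fold) and 3.32 ± 0.24 in THOC5 cells (9.86-fold). Ifi208 stood at 15.1 and 17.3 in the GFP growth libraries and 106 and 177 in the osteogenic ones, with 5.79 and 6.69, then 99.1 and 84.5, for THOC5 cells. Its log2 changes were 3.01 ± 0.28 (8.74-fold) and 3.68 ± 0.28 (14.7-fold), although in the THOC5 growth libraries it rested on 6 and 7 reads. Ifi207 was the most abundant of these 3. It stood at 237 and 342 in the GFP growth libraries and 1061 and 1231 in the osteogenic ones, with 214 and 141, then 729.7 and 739.7, for THOC5 cells. The groups were again apart, by 3.96-fold and 4.13-fold, with log2 changes of 2.00 ± 0.20 and 2.07 ± 0.20.

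Ifi205 lay between those sets. It stood at 107 and 132 normalized counts in the GFP growth libraries and 258 and 360.5 in the osteogenic ones, with 142 and 86.0, then 281 and 279.7, for THOC5 cells. The change was 2.59-fold in GFP cells and 2.46-fold in THOC5 cells, with no overlap in either. Ifi209 was barely detected, at 2 and 0 reads in the GFP growth libraries, 10 and 9 in the GFP osteogenic ones, 3 and 0 in the THOC5 growth ones, and 5 and 1 in the THOC5 osteogenic ones. A count of 0 allows up to 3 reads, or 2.59 to 3.99 normalized counts, so only the GFP osteogenic libraries and 1 THOC5 osteogenic library lay above that limit. The osteogenic-to-growth ratio of its summed reads, scaled for depth, was 6.73 in GFP cells (95% exact interval 1.62 to 59.6) and 1.92 in THOC5 cells (0.411 to 11.9), intervals that cover counting error only.

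**Figure D2:**
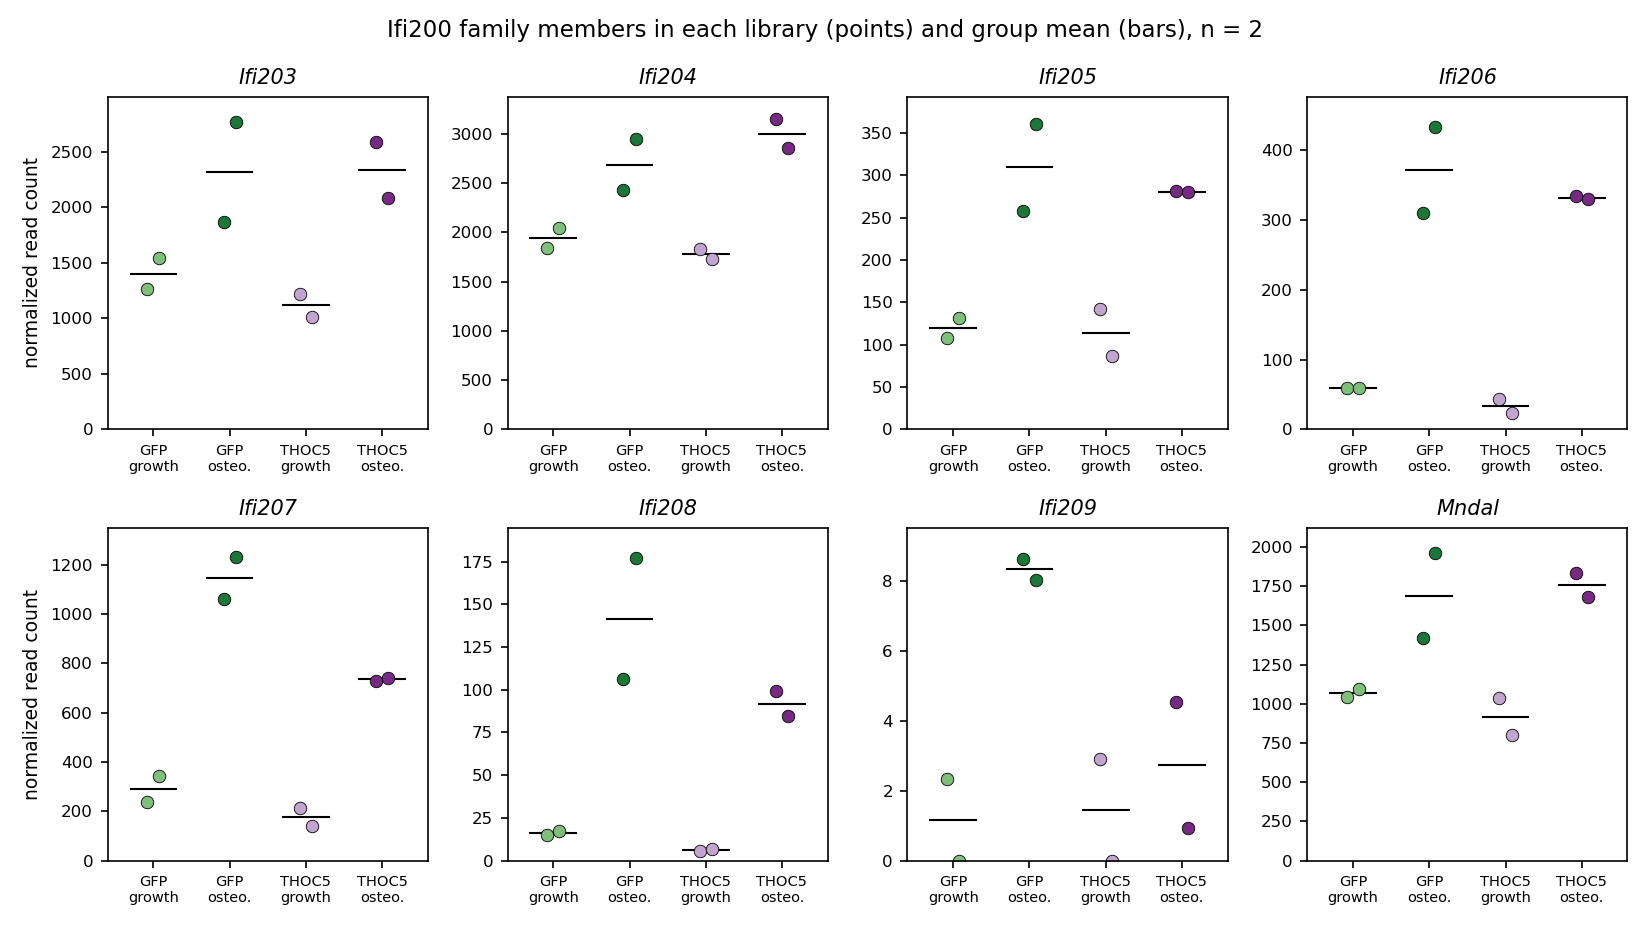
Normalized read counts (y axis, starting at 0, on a separate scale for each gene) of the 8 members in the 4 groups; points are libraries and bars are means of 2. In every panel but that of Ifi209 the 2 osteogenic libraries of each kind of cell lie above its 2 growth libraries, and Ifi209 stays below 9 normalized counts.

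Because the members were listed from their response to the medium, the counts that follow are a description and support nothing. In GFP cells 7 of the 8 passed the adjusted threshold of 0.05 as higher and Ifi209 did not, where 10.3% of the 22575 genes tested passed as higher. In THOC5 cells the same count was 7 of 8, where 0.532% of all genes passed as higher. The groups did not overlap, with osteogenic above growth, for 8 of 8 members in GFP cells (27.7% of all genes) and 7 of 8 in THOC5 cells (15.1%). The median log2 change of the members was 1.68 in GFP cells and 1.20 in THOC5 cells, beside 0.00 and -0.01 over all genes tested. The lower THOC5 median comes from Ifi209, at 2.36 and 0.73 on few reads: without it the medians are those of Ifi205, 1.35 and 1.34. Of the 8 members 6 had the larger estimate in THOC5 cells, Ifi207 among them only until libraries were scaled to their totals, and the interaction test passed for none of them. In bulk RNA a higher level per cell and a larger share of cells that express the gene cannot be told apart. The GFP count dropped to 3 without GFP growth replicate 1, to 4 without GFP growth replicate 2 and to 4 without GFP osteogenic replicate 2. The THOC5 count dropped to 1 without either GFP growth library, to 3 without THOC5 growth replicate 2, and to 2 without either THOC5 osteogenic library, while fitting only the 4 THOC5 libraries called 0 of the members and 0 of all genes higher. The log2 changes of the 7 members stayed positive in each of these fits.

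The summed level of the 8 members does not depend on how reads are split among them, though reads can also be shared with relatives outside the 8. It was 4562 and 5232 normalized counts in the GFP growth libraries and 7462 and 9885 in the osteogenic ones, 1.77-fold more in the mean. For THOC5 cells it was 4501 and 3790.5, then 9017 and 8054, or 2.06-fold. As a log2 difference with the SD between libraries, these are 0.82 ± 0.32 and 1.04 ± 0.21. With 2 libraries against 2, no exact permutation test of this sum could reach 0.05, and none was made. With the other measured family genes added, the mean sum went from 5555 to 9610 in GFP cells and from 4696 to 9593 in THOC5 cells.

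The makeup of that sum shifted with the medium. Ifi203, Ifi204 and Mndal together gave 90.1% ± 0.9 of it (SD, n = 2) in the GFP growth libraries and 77.1% ± 0.7 in osteogenic medium. In THOC5 cells they gave 92.1% ± 1.6 and 83.1% ± 1.2. Ifi206, Ifi207 and Ifi208 together went from 7.40% ± 0.82 to 19.2% ± 0.8 in GFP cells and from 5.20% ± 0.93 to 13.6% ± 1.0 in THOC5 cells. Ifi207 alone accounted for 13.3% ± 1.3 in GFP cells and 8.64% ± 0.77 in the THOC5 osteogenic libraries. No osteogenic library overlapped a growth library of the same cells in either combined share. These are shares of reads, so longer transcripts weigh more.

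**Figure D3:**
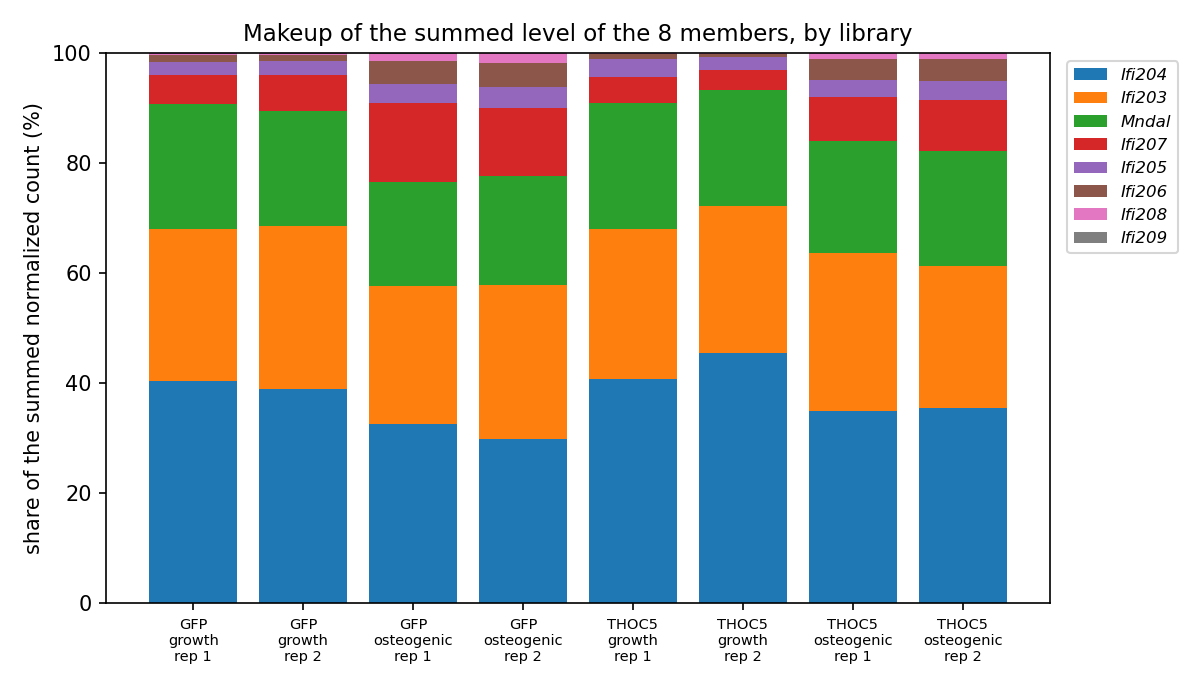
Share of the summed normalized count of the 8 members (y axis, percent) contributed by each member, 1 stacked bar per library. The lower 3 segments (Ifi204, Ifi203, Mndal) together take 89.5% to 93.2% of each growth bar and 76.6% to 83.9% of each osteogenic bar, and the Ifi207 segment is widest in the GFP osteogenic bars.

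All 8 members lie in 1 cluster on chromosome 1, from 173350879 to 174031810 (GRCm38, GENCODE M21), a stretch of 680932 bases with 14 annotated family genes. Along the chromosome, Ifi206 comes first (173468485 to 173491041, minus strand), then Ifi209 (173630917 to 173647928, plus), Ifi208 (173673675 to 173698395, plus) and Ifi207 (173723427 to 173741747, minus). Ifi204 (173747293 to 173766943), Mndal (173849126 to 173942491), Ifi203 (173920407 to 173942672) and Ifi205 (174011998 to 174031810) follow, all on the minus strand and all annotated as protein coding. The members with log2 changes of 2 or more in both kinds of cell, Ifi206, Ifi208 and Ifi207, lie on the Aim2 side of Ifi204, as does Ifi209, and those from Ifi204 onward changed by 0.46 to 1.35. Ifi207 and Ifi204 are direct neighbours and differ by 3.96-fold against 1.38-fold in GFP cells. Of 8 non-family genes listed from beside the cluster, 6 were measured and 0 of them passed in either response; Fmn2, the most abundant of them, changed by 0.14 ± 0.14 in GFP cells.

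**Figure D4:**
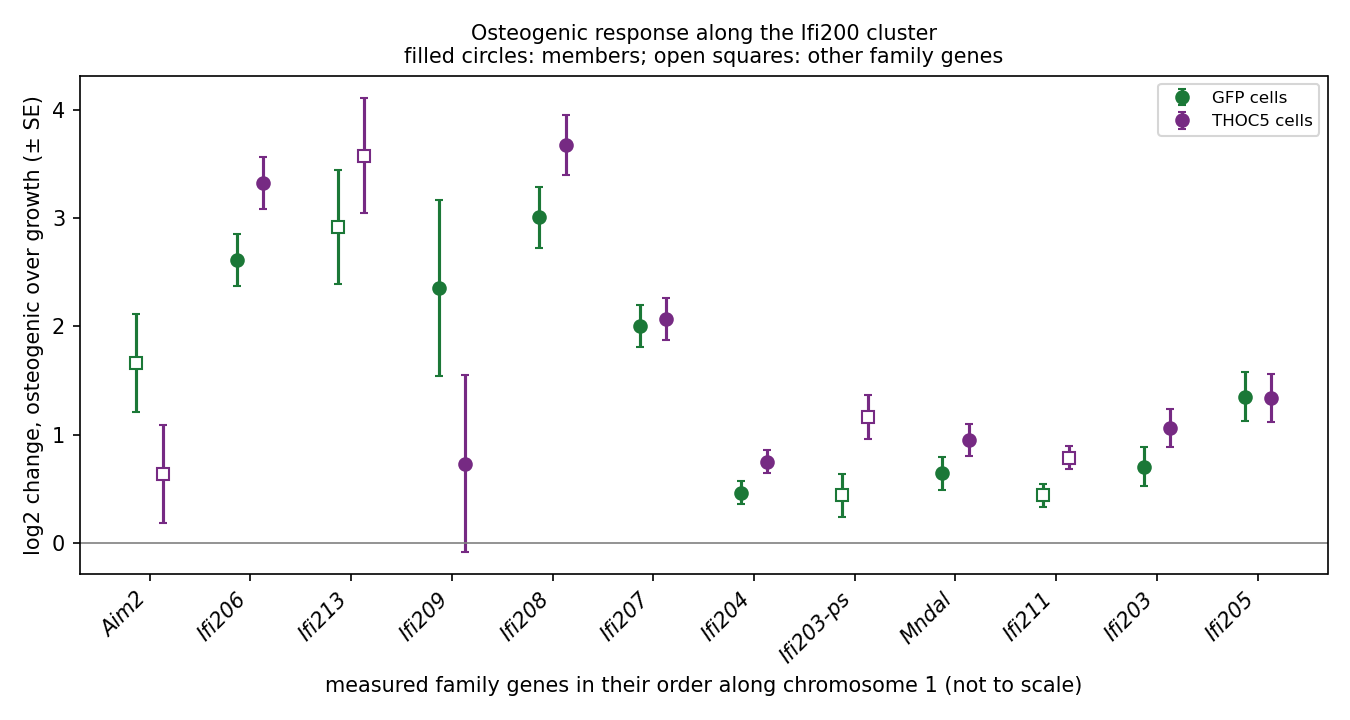
Log2 change in osteogenic over growth medium (y axis, ± SE) for the 12 measured family genes in their order on chromosome 1 (x axis, not to scale), in GFP cells (green) and THOC5 cells (purple). Filled circles are members and open squares other family genes; points from Ifi206 to Ifi207 lie at 2.00 or above, apart from Ifi209 in THOC5 cells at 0.73.

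Of 10 other family genes listed, 6 were in the table and 4 were tested, and 3 of those 4 passed as higher in each response. Ifi213 went from 1 and 2 reads to 19 and 28 in GFP cells, and from 0 and 1 to 17 and 17 in THOC5 cells, ratios of 11.1 (95% exact interval 3.57 to 55.7) and 32.7 (5.49 to 1329). Ifi211 rose by a log2 of 0.44 ± 0.11 and 0.79 ± 0.11, beside 0.64 and 0.95 for Mndal, but 72.8% of the 50-base stretches of its transcript also occur in other family genes, so its reads cannot be told apart from theirs over most of its length. The pseudogene Ifi203-ps rose in THOC5 cells (1.16 ± 0.20), while in GFP cells its change of 0.44 ± 0.20 did not pass. Aim2, the inflammasome sensor, rose in GFP cells (1.66 ± 0.45) on 5 and 9 against 37 and 29 reads, and in THOC5 cells its change of 0.64 ± 0.45 did not pass. Ifi202b and Ifi214 had at most 1 read in any library.

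Shared sequence limits how far single members can be told apart. Of all 50-base stretches in a member's annotated transcripts, the share also found in another family gene was 5.39% in Ifi207, 12.2% in Ifi203, 15.8% in Ifi206, 17.7% in Mndal, 18.6% in Ifi205, 19.2% in Ifi204, 20.8% in Ifi208 and 33.4% in Ifi209. Ifi209 shared its stretches with Ifi214, Ifi208 mostly with Ifi213, and Ifi205 mostly with Ifi211. Counting genes outside the family as well raised the Ifi206 share to 25.6%. At 100 bases the shares within the family fell to between 0.263% and 16.9% in the members. Ifi207 had the least shared sequence of the 8. What shared reads contribute to the change of any member was not tested. The annotated Mndal gene also spans Ifi211 and Ifi203, and 37 of its exon bases lie in exons of Ifi203. The libraries were not stranded and how multiply placed reads were counted is not given in the sources used here, so values of single members stay uncertain to that extent.

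THOC5 cells were compared with GFP cells in growth medium to ask whether THOC5 alone shifted the members. The libraries compared also entered the medium response that the members were selected on. Values of p for members, here and in the comparisons that follow, are therefore not independent of that selection. None of the 8 passed (adjusted p 0.906 to 0.992, limma), where 1 gene in all, Thoc5 itself, passed (0.00443% of genes tested). At an unadjusted p under 0.05 the count was 3, and edgeR and DESeq2 each called 0. Those 3 had the largest differences: Ifi208 at a log2 of -1.25 ± 0.28 (95% interval -1.87 to -0.63), Ifi206 at -0.85 ± 0.24 (-1.38 to -0.32) and Ifi207 at -0.70 ± 0.20 (-1.13 to -0.28). Both THOC5 libraries lay below both GFP libraries for 6 of the 8 members, where 16.5% of all genes did so. Several of these gaps were narrow, such as 1835 against 1839 normalized counts for Ifi204. The remaining pair, Ifi205 and Ifi209, overlapped. The summed level was 4501 and 3790.5 in THOC5 cells against 4562 and 5232 in GFP cells.

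In osteogenic medium 1 of the 8 passed, where 10.7% of all genes passed as lower. The members were selected for a response that uses these osteogenic libraries, so the call is a description. Ifi207 was lower in THOC5 cells by a log2 of -0.64 ± 0.20 (95% interval -1.07 to -0.21, adjusted p 0.0373, limma), at 729.7 and 739.7 against 1061 and 1231 normalized counts. This call was lost without any 1 of 6 libraries, and its adjusted p became 0.0699 or 0.0701 when a GFP growth library (replicate 1 or 2) was left out, 0.140 or 0.250 for the GFP osteogenic ones, and 0.186 or 0.196 for the THOC5 osteogenic ones. Admitting every gene with any value above 0 also ended it (adjusted p 0.114). Ifi208 differed by -0.58 ± 0.28 (95% interval -1.20 to 0.04, adjusted p 0.181), with 99.1 and 84.5 against 106 and 177, and only edgeR called it (adjusted p 0.0275). Intervals of the other members spanned 0. They ran from -0.36 to 0.42 for Ifi203, -0.07 to 0.39 for Ifi204 and -0.26 to 0.40 for Mndal, and these 3 changed sign when libraries were scaled to their totals (-0.15, -0.012 and -0.10). In the authors' deposited table the adjusted p in this medium was 0.00151 for Ifi207 and 0.143 for Ifi208.

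**Figure D5:**
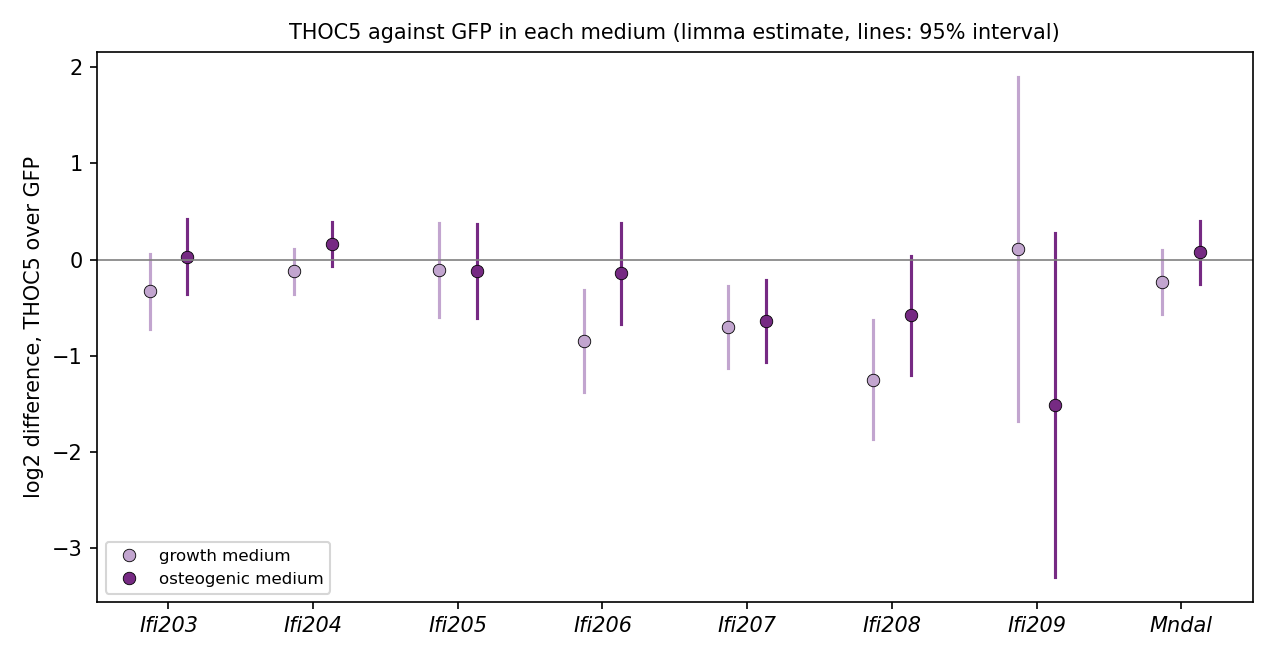
Log2 difference of THOC5 over GFP cells (y axis) for each member in growth medium (light) and osteogenic medium (dark); points are limma estimates and lines 95% intervals. The intervals of Ifi206, Ifi207 and Ifi208 in growth medium and of Ifi207 in osteogenic medium lie below 0, and only the last of these 4 passed after adjustment over all genes.

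Whether the response to the medium itself differed between THOC5 and GFP cells was tested as an interaction, which uses the libraries of both comparisons above. It passed for 0 of the 8 members, where 9.22% of all genes passed, and the count was 0 at an unadjusted p under 0.05 and 0 with edgeR and with DESeq2. The largest positive estimates were 0.71 ± 0.34 for Ifi206 (95% interval -0.04 to 1.46, adjusted p 0.242) and 0.67 ± 0.40 for Ifi208 (-0.20 to 1.54, adjusted p 0.353). Ifi207 was at 0.07 ± 0.28 (-0.54 to 0.67). These intervals still allow a response in THOC5 cells that is larger by a log2 of 0.67 or more for each of those 3 genes, so the test does not show that the responses were alike. Ifi209 was at -1.62 ± 1.15 on few reads.

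Genes that act upstream and downstream of these sensors were read from lists drawn up without regard to size of change but with results of these data known. Of 8 genes of DNA sensing and STING signalling, 2 rose and 3 fell in GFP cells, and 1 rose and 0 fell in THOC5 cells. Over all genes tested, 10.6% fell in GFP cells and 0.00886% in THOC5 cells. Zbp1, a sensor of Z-form nucleic acid, rose by a log2 of 0.93 ± 0.15 and 1.68 ± 0.15. Samhd1, which depletes the nucleotide pool, fell in GFP cells (-0.41 ± 0.11), and its change in THOC5 cells was 0.30 ± 0.11 and did not pass. The kinase gene Tbk1 was at -0.04 ± 0.08 and 0.07 ± 0.08, and neither passed. Of 12 genes of interferon signalling, 6 rose and 2 fell in GFP cells, and 4 rose and 0 fell in THOC5 cells. Stat2, a transcription factor of the interferon response, rose by 0.70 ± 0.12 and 1.08 ± 0.12. Usp18, which dampens the interferon receptor, rose by 1.37 ± 0.13 and 1.35 ± 0.13, and Jak1, a receptor kinase, was at 0.01 ± 0.08 and 0.12 ± 0.08. Of 9 inflammasome and pyroptosis genes tested, 3 rose and 1 fell in GFP cells, and 0 passed in THOC5 cells in either direction by limma. Casp4, the caspase that senses lipopolysaccharide, fell in GFP cells (-0.50 ± 0.14), and the pore former Gsdmd was at -0.27 ± 0.10 and did not pass.

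The same lists were then compared between THOC5 and GFP cells within a medium. In growth medium 0 of the 8, 12 and 9 genes passed. In osteogenic medium 3 of 8 DNA sensing genes were higher in THOC5 cells, as were 11.3% of all genes, among them Samhd1 (0.77 ± 0.11, adjusted p 0.000679, limma). Of the interferon signalling genes 3 were higher and 2 lower there, and of the inflammasome genes 2 were higher and 2 lower. Usp18 was lower, by -0.45 ± 0.13 (adjusted p 0.0297), as Ifi207 was.

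Other interferon-induced families are given for scale, as their responses rest on the same libraries. Of 8 OAS genes, which sense double-stranded RNA, 7 rose in GFP cells and 7 in THOC5 cells, with median log2 changes of 0.95 and 1.69. Of 9 IFIT, viperin and Mx genes 7 and 5 rose, with medians of 1.25 and 1.85. The members, which were chosen on this response, had medians of 1.68 and 1.20, or 1.35 and 1.34 without Ifi209. The largest changes in GFP and THOC5 cells were 3.01 and 3.68 among the members. They were 3.96 and 2.31 among the OAS genes, and 3.19 and 2.57 among the IFIT, viperin and Mx genes. Oas2 changed by 0.59 ± 0.16 in GFP cells and 1.80 ± 0.16 in THOC5 cells, and its interaction passed (1.21 ± 0.23, adjusted p 0.00862), which that of no member did. Rsad2, which encodes viperin, rose by 3.19 ± 0.28 in GFP cells and 2.57 ± 0.28 in THOC5 cells, and was lower in the THOC5 than in the GFP osteogenic libraries (-1.54 ± 0.28, adjusted p 0.00249). No difference between these lists was tested.

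Within groups the members also deviated in the same direction. Replicate 2 was above replicate 1 for 6 of the 8 members in the GFP growth libraries and 7 in osteogenic medium, and for 1 of the 8 in each of the THOC5 groups. Among all genes with a mean of at least 20 normalized counts, 47.8% to 49.8% were higher in replicate 2 of the same groups. Ifi209, which the member counts include, does not reach that mean. The spread behind the members' standard errors is therefore partly shared among them, so the 8 genes are not 8 separate observations.

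Likeness of profiles was measured as the root mean square difference of log2 levels, each centred on its mean, over the 8 libraries. Among the members, Ifi203 and Mndal were the closest pair (0.0988), followed by Ifi204 and Mndal (0.138), and Ifi204 and Ifi208 were the farthest apart (1.45). Outside the list, among 11381 genes, the profiles nearest to the summed level were those of Herc6 (0.0540), Trim12c (0.0587), Parp14 (0.0611), Trim30d (0.0666) and Stat2 (0.0747). Single members had other nearest genes: Znfx1 for Ifi204 (0.0443), Gbp2 for Mndal (0.0599), Trim30d for Ifi203 (0.0653) and Igtp for Ifi205 (0.109). For the steeper members the nearest genes lay farther away, with Ifit3b for Ifi207 (0.226) and Ifi206 (0.320) and Rsad2 for Ifi208 (0.554). The nearest gene to Ifi209, Slc6a9, was at 0.590, and that profile rests on 0 to 10 reads per library. These distances describe 8 libraries that share the same medium contrast, and carry no test.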

How the data were processed

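Polyadenylated RNA of 8 libraries (TruSeq, not stranded, per the labels' protocols) is given in the authors' deposited table as a signal per gene: reads scaled by a single size factor for each library. Undoing that scaling gave whole reads for 100% of values (largest distance 1.34e-09, tolerance 1e-06). For 4 comparisons the deposited table adds, per the file headers, a log2 fold change, its standard error and an adjusted p-value, used only where named. The submitters' processing notes list FastQC, Bowtie2, MACS2, SAMtools and mm10 and give no role or version for any of them. How reads were counted, and on which annotation, is not given in the sources used here. RNA immunoprecipitation libraries named in the series design were not analysed here.

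Groups came from the sample titles, and each column was matched by the description in the labels. limma 3.58.1 (R 4.3.3, trend option) was fitted to log2(normalized count + 1) in 1 fit of 4 groups with 4 residual degrees of freedom. Genes had to reach a normalized count of 1 in 2 or more libraries, which 22575 did. All 8 members passed this filter. The Benjamini-Hochberg adjustment covered all genes per contrast, at a threshold of 0.05, and the log2 scale understates changes of low genes. edgeR 4.0.16 and DESeq2 1.42.0 on the recovered reads, other pseudocounts (0.5 and 5), other filters, scaling to library totals, a replicate block, the 4 compared libraries alone and each library left out were the alternatives. The limma code was tested on simulated data. Sequences and motifs came from RefSeq (GRCm38.p6), gene positions and exon lengths from GENCODE M21, and promoters were aligned with Biopython 1.88.

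Named genes were the members, Thoc5, the measured relatives and the 3 most abundant genes of each list (DNA sensing and STING, interferon signalling, inflammasome and pyroptosis, genes beside the cluster, OAS, IFIT with viperin and Mx, and cell type markers). For likeness, 5 genes were taken for the sum and 2 for each member among genes with a mean of at least 20, and 1 of those 2 is printed. The members, lists and tests were chosen with earlier results of these data known.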

Additional observations from a re-analysis of the deposited data

How the results depend on the processing

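Across the 5 comparisons, 5 of the log2 changes of single members reversed in fits that kept every library and 17 in fits that left 1 out. Replicate numbers were checked as a pairing: libraries with the same number deviated together with correlations between -0.161 and 0.347 over 12037 genes. The highest of these was between the GFP and THOC5 growth groups, and what those libraries share was not tested. The labels name no pairing, so the numbers were not treated as pairs in the fit as reported. Ifi209 also passed in GFP cells with a replicate block, with a pseudocount of 5 and with scaling to library totals, which each made 8 members higher. These calls rest on 2 and 0 reads against 10 and 9. As the members were selected on this response, they are a description and support nothing. The replicate block changed no other member's call. Scaling to library totals moved the median of all genes by 0.14 in the GFP response, by -0.17 for THOC5 against GFP in osteogenic medium and by -0.11 in the interaction. It gave 3721 genes higher and 1688 lower in the GFP response (2314 and 2384 with the authors' factors), 1662 higher and 4066 lower for THOC5 against GFP in osteogenic medium (2550 and 2413), and 886 higher and 1382 lower in the interaction (1197 and 885). Under it the THOC5 against GFP difference in osteogenic medium reversed for Ifi203 (-0.15), Ifi204 (-0.012) and Mndal (-0.10), and the interaction of Ifi207 (-0.045), and edgeR gave -0.0031 for Ifi203.

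Admitting any value above 0 left 3 members and 36 genes higher and 1 lower in the THOC5 response, 0 genes for THOC5 against GFP in growth medium, 0 members lower in osteogenic medium, and 699 and 423 genes higher and lower in the interaction. Genes lower in the THOC5 response numbered 2 in the fit as reported, 7 with a mean of at least 10, 15 with edgeR and 17 with DESeq2, and edgeR called 2 members lower for THOC5 against GFP in osteogenic medium. Fitting only the 4 compared libraries, which leaves fewer residual degrees of freedom, gave 4 members, 1080 genes higher and 1213 lower in the GFP response, none (0) for the THOC5 one, 0 for THOC5 against GFP in growth medium, and 1586 higher and 1444 lower with osteogenic medium.

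Leaving out 1 library gave 3 to 7 members higher in the GFP response, 1 to 6 in the THOC5 response and 0 to 1 lower for THOC5 against GFP in osteogenic medium. Over all genes the ranges were 831 to 2212 higher and 1236 to 2285 lower in the GFP response, 8 to 101 higher and 0 to 5 lower in the THOC5 response, 0 to 1 higher for THOC5 against GFP in growth medium, 1166 to 2447 higher and 821 to 2306 lower in osteogenic medium, and 0 to 1093 higher and 0 to 712 lower in the interaction. Ranges that crossed 0 in these fits were -0.25 to 1.71 for Ifi209 in the THOC5 response, -0.87 to 1.09 for Ifi209 and -0.46 to 0.25 for Ifi205 in THOC5 against GFP cells kept in growth medium, and, with osteogenic medium, -0.25 to 0.31 for Ifi203, -0.36 to 0.12 for Ifi205, -0.39 to 0.10 for Ifi206 and -0.16 to 0.31 for Mndal. In the interaction they were -0.38 to 0.34 for Ifi205 and -0.23 to 0.37 for Ifi207. The summed level changed 1.52-fold to 2.02-fold in GFP cells and 1.90-fold to 2.25-fold in THOC5 cells. Where no construction is named, the cause was not tested. Ifi209 was too thinly read for a mean of at least 10, so the fit with that filter gave no value for this gene. The interaction needs libraries from every group, so fits of only the compared libraries gave no interaction estimate.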
